A study of Mus musculus with 9 samples.

Results

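The genes described here carry out fatty acid activation and beta-oxidation: 34 listed genes, chosen by name from the 47729 gene identifiers of each count table, of which 33 were read deeply enough to be tested. Before a fatty acid can be burned it is joined to coenzyme A, passed into mitochondria as a carnitine ester and shortened by repeated rounds of dehydrogenation, hydration, a further dehydrogenation and thiolysis. Peroxisomes run a parallel route for very long and branched chains. In macrophages driven by IL-4 into alternative activation, lipid supply from the lysosome and oxidation of fatty acids are known as parts of the metabolic programme.

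RNA-seq covered 9 libraries of sorted mouse peritoneal macrophages, 3 from each of 3 groups, and all mice had the genotype Cx3cr1CreERT2-IRES-EYFP/+ Rosa26-stopfl-tdTomato/+, in which Cx3cr1 drives an inducible Cre and a red reporter is switched on by it. Every mouse received complexes of 5 µg IL-4 and 25 µg anti-IL-4, begun 4 days before harvest and repeated every other day. Converted macrophages (Tissue_converted) came from mice given 2 ml thioglycollate, an irritant that recruits blood monocytes, and kept on a tamoxifen diet for 10 weeks. Resident macrophages (Tissue_resident) have no further treatment in their labels. Monocyte-derived macrophages (Monocyte_derived) were taken 4 days after 2 ml thioglycollate. The sources used here do not state age, strain, sex, sort gates or whether each library is its own mouse, so each p-value is a statement about libraries whose spread may be technical.

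The libraries held 15220884 to 20496258 reads in genes. Csf1r, the growth factor receptor of macrophages, was at 1053 to 1159 CPM (reads scaled to library size) in all 9 libraries. Gata6, the transcription factor of resident cavity macrophages, ranged over 132 to 177 CPM in the converted group, 159 to 163 in the resident group and 0.587 to 2.08 in the monocyte-derived group. Adgre1, which encodes the macrophage antigen F4/80, averaged 3077 ± 377, 2978 ± 32.7 and 343 ± 105 CPM in converted, resident and monocyte-derived libraries, and Ccr2, the chemokine receptor of monocytes, 2.32 ± 0.139, 10.5 ± 1.05 and 823 ± 462 CPM (SD, n = 3). Other differences ran along the same groups. Xist, expressed from the inactive X chromosome, had no read in converted libraries, at most 0.0979 CPM in resident ones and 41 to 101 CPM in monocyte-derived ones. The Y-linked Ddx3y was at 84.6 to 96.1 CPM in converted, 85.9 to 93.4 in resident and 0 in all monocyte-derived libraries. Sex, the recent irritant and origin therefore cannot be told apart in comparisons with monocyte-derived libraries. The labels give the tamoxifen diet for converted mice alone, so it cannot be told apart from origin in either comparison of that group. Thioglycollate, given to converted but not listed for resident mice, likewise cannot be told apart from origin between those groups. A list of 12 B-cell markers summed to 109 to 232 CPM in converted, 1257 to 1621 in resident and 42.9 to 84.8 in monocyte-derived libraries, with all 12 read in each group. The 6 dendritic cell markers summed to 21.3 to 80.9, 173 to 189 and 17.6 to 68.4 CPM in the same order, all of them read in each group. Most of the converted and resident sums came from Cd209a, which averaged 48.6, 172 and 20.1 CPM in that order. The other markers averaged highest in monocyte-derived libraries, among them Flt3 (0.258, 0.532 and 8.24 CPM) and Zbtb46 (2.9, 4.45 and 6.91 CPM). A list of 8 neutrophil markers summed to 1.69 to 2.15, 1.05 to 2.7 and 20.9 to 55.9 CPM in the same order of groups, with S100a9, Camp and Mmp8 at 0 in converted libraries and Retnlg at 0 in resident ones. S100a9 and S100a8 led the monocyte-derived sums on average (12.4 and 10.6 CPM). Ly6g ran the other way, at 0.542, 0.354 and 0.0711 CPM, and Camp was at no more than 0.0979 CPM in any library. The 5 adipocyte markers summed to 11.7 to 25.6, 13.2 to 19.8 and 0.48 to 5.67 CPM, nearly all of it from Plin1 in converted and resident libraries, where the defining markers Adipoq and Cfd were at or near 0. Adipoq ran against these sums, with 0.48, 5.61 and 2.72 CPM in monocyte-derived libraries, where Plin1 was at no more than 0.129 CPM.

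More of these transcripts were higher than lower in both tissue populations relative to monocyte-derived macrophages. In converted libraries 17 of 33 tested members (51.5%) were higher and 4 (12.1%) lower, against 25.8% higher and 24.9% lower (50.7% in all) among the 13223 genes tested by edgeR's quasi-likelihood test at an adjusted p under 0.05. In resident libraries 16 (48.5%) were higher and 2 (6.06%) lower than in monocyte-derived ones, against 25.7% and 24.9% (again 50.7% in all) of the tested genes. The libraries did not overlap for 16 members higher and 3 lower in converted versus monocyte-derived macrophages, beside 28.6% and 27.7% of tested genes (56.3% in all), and for 18 higher and 3 lower in resident versus monocyte-derived ones, beside 30.6% and 28.9% (59.5% in all). The median log2 fold change of the members was 0.25 and 0.28 in these comparisons, beside -0.01 and 0.00 for all tested genes. Both comparisons use the same monocyte-derived libraries, so they are not independent. Members higher in both were Acsl1, Cpt1a, Cpt2, Crot, Acadl, Acadvl, Acad9, Hadhb, Hadh, Echs1, Acaa2, Eci1, Eci2, Etfdh, Ehhadh and Hsd17b4, and members lower in both were Acsl4 and Lipa. In bulk samples fewer cells that express a gene and less of its RNA per cell cannot be told apart.

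Between converted and resident macrophages no difference in these genes was called. None of the 33 members passed in that comparison by edgeR or limma-voom, and DESeq2 called 1, Hsd17b4. Over all genes 6.07% passed by edgeR (1.82% higher, 4.26% lower), 6.51% by limma-voom and 10.3% by DESeq2. Few calls would fall among 33 genes at these rates. An unadjusted p under 0.05 was found for 7 members by edgeR, 7 by limma-voom and 6 by DESeq2, beside 20.8% of all genes by edgeR. Member log2 fold changes ran from -0.40 to 0.34 with a median of 0.02, and the 95% intervals of 32 of the 33 lay within 1 log2 unit of 0 on either side. The libraries did not overlap for 12 members, 8 higher and 4 lower in converted libraries, beside 19.6% and 17.7% (37.3% in all) of the tested genes.

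With the log2 sum of the B-cell markers as a covariate, 11 members were higher and 1 lower in converted than in monocyte-derived libraries, beside 26.3% of all genes called in that fit, while in resident versus monocyte-derived libraries no member was called, beside 0.832% of all genes. The index differs between the groups without overlap, and it raised the median SE over all genes in the resident comparison to 0.827, against 0.168 without it. Between converted and resident libraries no gene at all was called in that fit, with a median SE of 0.603 against 0.166. The calls between these groups named further on, of Acsf2, Ppargc1b, Lpl and Slc27a3, were thus lost in it.

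**Figure D1:**
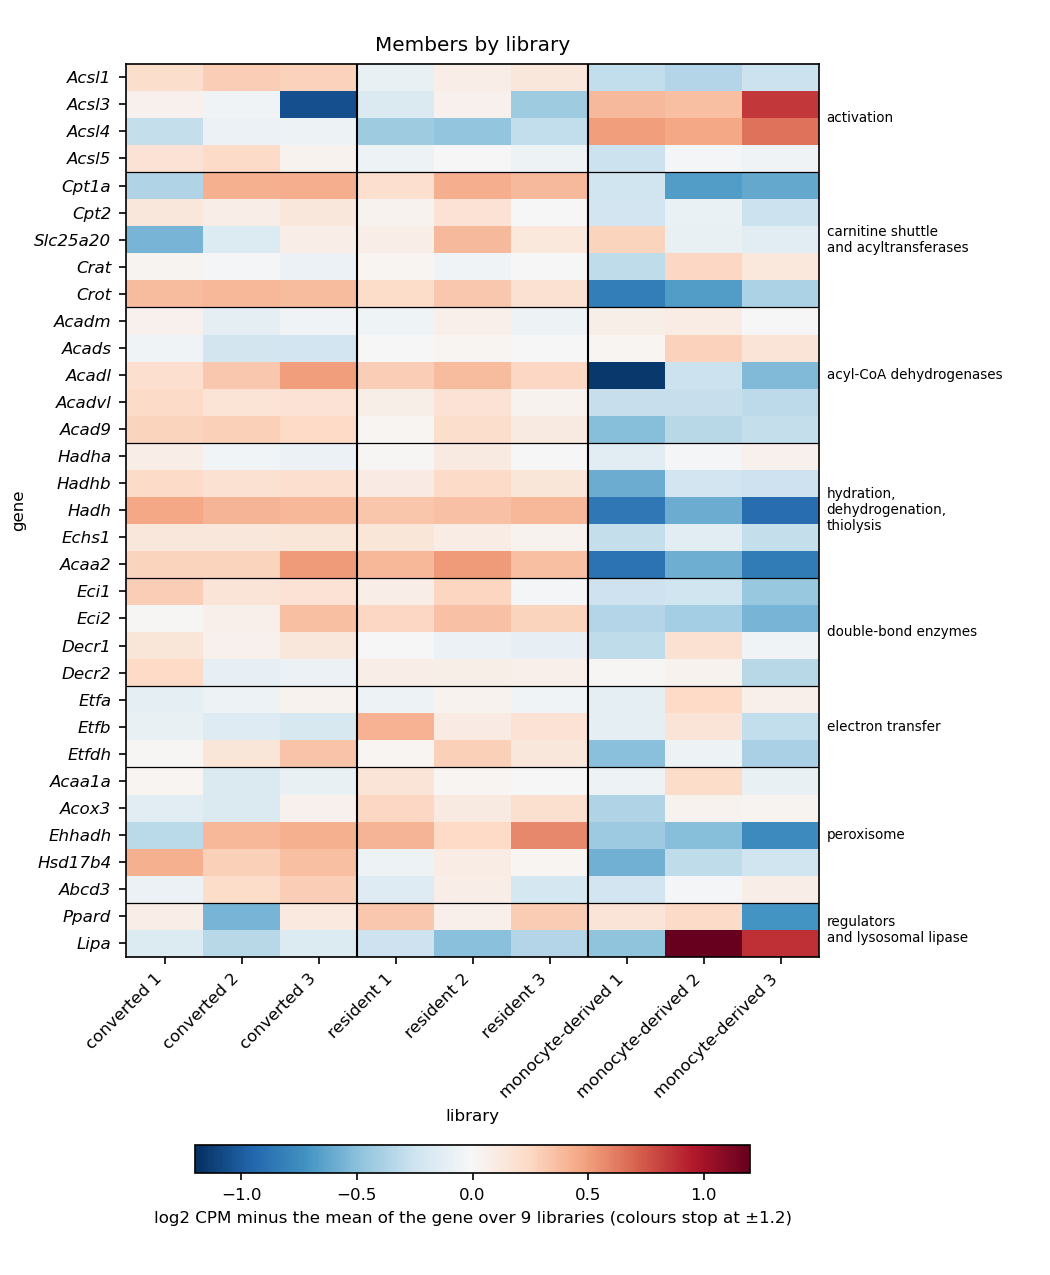
Each row is 1 of the 33 tested members, ordered by role, and each column 1 library; colour gives log2 CPM minus the gene's mean over the 9 libraries, with the scale capped at the values on its bar. The monocyte-derived columns are low for Hadh, Acaa2, Crot, Acadl, Acadvl and Acad9 and high for Acsl4.

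The start-site windows of 5 members are shown because they stand for the main patterns: Hadhb rose beside its divergent neighbour Hadha, which was not called; Hadh and Crot were among the largest increases; Cpt1a is the gate of the mitochondrial route; Acsl4 fell. Each runs 5′ to 3′ on the gene's own strand from 250 bases before to 50 after the start, from RefSeq on GRCm38.p6: Hadhb chr5:30155003-30155302 (+), Hadh chr3:131272052-131272351 (-), Crot chr5:8997097-8997396 (-), Cpt1a chr19:3323051-3323350 (+) and Acsl4 chrX:142390486-142390785 (-). Capitals mark AGGTCA, the half-site of nuclear receptors, and GGGCGG, the GC box, on either strand.
Hadhb: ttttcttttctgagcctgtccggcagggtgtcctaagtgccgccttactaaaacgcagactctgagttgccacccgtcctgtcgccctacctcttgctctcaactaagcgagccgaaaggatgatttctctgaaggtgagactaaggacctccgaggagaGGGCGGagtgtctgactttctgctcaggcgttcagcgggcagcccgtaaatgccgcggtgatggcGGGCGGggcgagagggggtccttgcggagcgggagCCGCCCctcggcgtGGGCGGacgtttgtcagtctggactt
Hadh: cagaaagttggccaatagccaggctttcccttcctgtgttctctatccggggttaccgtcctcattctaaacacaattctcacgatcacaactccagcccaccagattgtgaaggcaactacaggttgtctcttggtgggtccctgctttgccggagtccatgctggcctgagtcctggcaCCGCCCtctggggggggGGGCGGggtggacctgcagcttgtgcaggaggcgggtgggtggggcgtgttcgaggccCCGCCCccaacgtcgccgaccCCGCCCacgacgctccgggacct
Crot: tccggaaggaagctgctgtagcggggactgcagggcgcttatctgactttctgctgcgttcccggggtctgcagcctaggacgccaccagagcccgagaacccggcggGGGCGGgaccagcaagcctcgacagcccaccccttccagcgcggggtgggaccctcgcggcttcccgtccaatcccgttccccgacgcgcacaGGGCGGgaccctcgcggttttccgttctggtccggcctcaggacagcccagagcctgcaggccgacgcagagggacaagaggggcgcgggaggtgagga
Cpt1a: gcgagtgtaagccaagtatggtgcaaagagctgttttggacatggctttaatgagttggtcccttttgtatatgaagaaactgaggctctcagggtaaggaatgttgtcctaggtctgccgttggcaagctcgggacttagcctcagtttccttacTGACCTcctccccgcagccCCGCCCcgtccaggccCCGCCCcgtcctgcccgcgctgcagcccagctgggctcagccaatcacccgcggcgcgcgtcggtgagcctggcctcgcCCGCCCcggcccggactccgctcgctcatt
Acsl4: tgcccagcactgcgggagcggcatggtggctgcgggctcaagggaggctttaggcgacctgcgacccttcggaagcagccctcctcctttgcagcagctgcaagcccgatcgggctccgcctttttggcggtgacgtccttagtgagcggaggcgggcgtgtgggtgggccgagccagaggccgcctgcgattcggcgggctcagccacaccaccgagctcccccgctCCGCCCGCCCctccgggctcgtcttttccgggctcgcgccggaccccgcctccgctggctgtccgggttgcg

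A window was given for 29 of the 34 members. GGGCGG was found in 24 of these 29 (82.8%), beside 35.7% of all 32851 windows of the table, which also hold noncoding genes. AGGTCA was found in 4 of 29 (13.8%), those of Acadm, Acadvl, Cpt1a and Echs1, beside 16.3% of all windows. A pair of AGGTCA copies in a row with 1 base of any kind between them, the textbook site of PPAR with RXR, each copy of which also counts as AGGTCA, was in none of the 29 and in 0.0396% of all windows. A match or its lack describes these letters in these windows and no binding.

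Activation, the joining of a fatty acid to coenzyme A, is done by the long-chain acyl-CoA synthetases. The 4 members of this family split: Acsl1 and Acsl5 were higher and Acsl3 and Acsl4 lower in converted than in monocyte-derived libraries. Acsl1, the isoform linked to oxidation in muscle and fat, had 44.2, 46.9 and 46 CPM in converted, 35.7, 40.3 and 41.8 in resident and 31.1, 29.8 and 31.8 in monocyte-derived libraries. Its 3 groups did not overlap and were ordered converted, resident, monocyte-derived from high to low. Relative to monocyte-derived libraries it was 1.48-fold higher in converted ones (log2 0.56 ± 0.09 SE, adjusted p = 0.000496) and 1.27-fold higher in resident ones (log2 0.35 ± 0.09, adjusted p = 0.00859). Acsl4, which prefers arachidonate and other polyunsaturated chains, had 44.8, 52 and 52.4 CPM in converted, 40.6, 39.3 and 44.4 in resident and 77.1, 75.3 and 85.7 in monocyte-derived libraries. All monocyte-derived libraries stood above the rest, a 1.6-fold lower level in converted (log2 -0.67 ± 0.10, adjusted p = 0.000254) and 1.91-fold lower in resident libraries (log2 -0.94 ± 0.10, adjusted p = 3.2e-05). Acsl4 lies on chromosome X, so the split in Xist runs along this difference, and its part in it was not tested.

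Acsl3, found on the endoplasmic reticulum and lipid droplets, had 9.42, 8.83 and 4.39 CPM in converted, 8.09, 9.44 and 6.8 in resident and 11.9, 11.7 and 16.4 in monocyte-derived libraries. Its fall in converted libraries (1.76-fold lower, adjusted p = 0.0305) lost its call without converted library 3 (0.0675) or monocyte-derived library 3 (0.0962) and in a fit of the 2 groups alone (0.0641). In resident libraries it was not called (adjusted p = 0.0505), but was called lower in 6 other settings, with adjusted p from 0.0129 to 0.046. Acsl5, a synthetase of mitochondria and the endoplasmic reticulum, had 272, 283 and 249 CPM in converted, 232, 240 and 231 in resident and 202, 238 and 235 in monocyte-derived libraries. It was 1.19-fold higher in converted than in monocyte-derived libraries (adjusted p = 0.0317), a call lost without converted library 1 (0.0773) or 2 (0.101), without monocyte-derived library 1 (0.0615) and in the fit of the 2 groups alone (0.0714). Per kilobase of merged exons Acsl5 held the greater part of the family in every library, with 77.2% to 79.2% of the summed level in converted, 77.5% to 78.9% in resident and 67.5% to 71.6% in monocyte-derived libraries. Acsl4 made up 11.7% to 14.6%, 11.6% to 13.4% and 20.4% to 23.2% in the same order of groups.

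The carnitine shuttle carries long chains across the inner mitochondrial membrane. Cpt1a, the outer-membrane transferase that malonyl-CoA inhibits and the rate-limiting step of the route, had 162, 280 and 281 CPM in converted, 240, 282 and 273 in resident and 176, 131 and 136 in monocyte-derived libraries. Converted library 1 lay within the monocyte-derived range, while the other converted libraries lay with the resident ones. Cpt1a was 1.63-fold higher in converted (log2 0.70 ± 0.20, adjusted p = 0.0164) and 1.79-fold higher in resident libraries (log2 0.84 ± 0.20, adjusted p = 0.00684). The converted call was lost without converted library 2 (0.0602) or 3 (0.0596) or monocyte-derived library 2 (0.0606) or 3 (0.054). Its muscle-type counterpart Cpt1b was read at no more than 0.105 CPM in any library.

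Cpt2, which returns the acyl group to coenzyme A inside the mitochondrion, had 37.9, 36.6 and 38 CPM in converted, 35.6, 39 and 34.5 in resident and 29.4, 32.8 and 29 in monocyte-derived libraries. It was 1.23-fold (adjusted p = 0.0183) and 1.2-fold (adjusted p = 0.0365) higher in converted and resident libraries. The first call was lost without converted library 3 (0.0507). The second was lost with no low-count filter (0.0841), in the fit of the 2 groups (0.0695) and without any of 6 libraries: resident 1 (0.0695) and 2 (0.134), monocyte-derived 1 (0.0748) and 3 (0.088), and converted 1 (0.051) and 3 (0.0512). Slc25a20, the carrier that exchanges acylcarnitine for carnitine, had 40.4, 53.1 and 62.7 CPM in converted, 62.8, 77.7 and 64.9 in resident and 71.4, 56 and 54.3 in monocyte-derived libraries, and passed in no comparison. Converted library 1 was the lowest of its group for Cpt1a and Slc25a20, and for the peroxisomal Ehhadh given further on. Among the 33 tested members it was the lowest of its group for 12 and the highest for 15.

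Crot, the peroxisomal transferase that makes medium-chain carnitine esters, had 60.8, 61.7 and 60.8 CPM in converted, 54.7, 58.7 and 53.3 in resident and 26.3, 29.5 and 35.9 in monocyte-derived libraries. The converted libraries were within 1 CPM of each other and no groups overlapped. Relative to monocyte-derived libraries it was 2-fold higher in converted (SE 0.11 on the log2 scale, adjusted p = 5.62e-05) and 1.82-fold higher in resident libraries (log2 0.86 ± 0.11, adjusted p = 0.000147). Crat, the carnitine acetyltransferase, had 137 to 147, 140 to 146 and 117 to 171 CPM in converted, resident and monocyte-derived libraries and passed in no comparison. Without monocyte-derived library 1, its lowest library, Crat was called lower in converted (adjusted p = 0.0338) and in resident libraries (adjusted p = 0.044).

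The acyl-CoA dehydrogenases, each for a range of chain lengths, open every round of oxidation. Acadl, the long-chain enzyme, had 259, 282 and 319 CPM in converted, 276, 293 and 268 in resident and 101, 188 and 156 in monocyte-derived libraries. All 6 tissue libraries lay above all monocyte-derived ones, among which library 1 was lowest. The fold was 1.93 in converted (log2 0.95 ± 0.19, adjusted p = 0.00226) and 1.88 in resident libraries (log2 0.91 ± 0.19, adjusted p = 0.00297). Acadvl, the very-long-chain enzyme of the inner membrane, had 60, 57.3 and 57.7 CPM in converted, 53.5, 57.5 and 52.7 in resident and 42.3, 42.2 and 41.2 in monocyte-derived libraries, which was 1.39-fold (adjusted p = 0.000458) and 1.3-fold (adjusted p = 0.00185) higher in the tissue groups. Acad9, a relative that also serves the assembly of respiratory complex I, had 47.9, 48.5 and 47 CPM in converted, 40.5, 46.2 and 43 in resident and 28, 31.6 and 32.6 in monocyte-derived libraries, a 1.56-fold (adjusted p = 0.000265) and 1.41-fold (adjusted p = 0.00136) higher level.

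The acyl-CoA dehydrogenases for shorter chains were not called higher. Acadm, the medium-chain enzyme, had 68.2 to 76.5 CPM in converted, 70.7 to 77 in resident and 74.2 to 78.3 in monocyte-derived libraries, and passed in no comparison. Acads, the short-chain enzyme, had 52.9, 46.6 and 46.4 CPM in converted, 54.7, 55.3 and 54.7 in resident and 55.4, 66.1 and 60.5 in monocyte-derived libraries. It was 1.25-fold lower in converted than in monocyte-derived libraries (log2 -0.32 ± 0.09, adjusted p = 0.0148), a call lost without converted library 2 (0.0586) or 3 (0.0602), with no low-count filter (0.057) and in the fit of the 2 groups (0.0579). Per kilobase Acadl made up 64.5% to 70.7% of the summed level of these 5 genes in converted, 66.6% to 67.2% in resident and 44.3% to 57.7% in monocyte-derived libraries.

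The inner steps of the mitochondrial cycle held the largest increases. Hadh (ENSMUSG00000027984, GRCm38 chromosome 3, 131233419 to 131272101), the hydroxyacyl dehydrogenase for medium and short chains, had 106, 102 and 101 CPM in converted, 96.8, 97.8 and 101 in resident and 42.2, 50.8 and 40.8 in monocyte-derived libraries. The tissue libraries of both groups stood far above the monocyte-derived ones. It was 2.31-fold higher in converted (log2 1.21 ± 0.09, adjusted p = 4.05e-06) and 2.21-fold higher in resident libraries (log2 1.14 ± 0.09, adjusted p = 6.06e-06). Acaa2, the mitochondrial thiolase that releases acetyl-CoA, had 222, 222 and 263 CPM in converted, 244, 264 and 237 in resident and 100, 123 and 103 in monocyte-derived libraries. Its fold was 2.17 in converted (log2 1.12 ± 0.11, adjusted p = 1.74e-05) and 2.29 in resident libraries (log2 1.19 ± 0.11, adjusted p = 1.15e-05). Echs1, the short-chain enoyl-CoA hydratase, had 127, 127 and 128 CPM in converted, 128, 123 and 119 in resident and 94.7, 106 and 94.9 in monocyte-derived libraries, 1.29-fold (adjusted p = 0.00213) and 1.25-fold (adjusted p = 0.00444) higher in the tissue groups.

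Hadha and Hadhb encode the alpha and beta subunits of the trifunctional protein, the membrane complex that runs the last steps on long chains. They lie head to head on chromosome 5, with 86 bases between their annotated starts, and 228 bases of the Hadhb window printed earlier are also in that of Hadha. Hadhb had 209, 203 and 206 CPM in converted, 191, 210 and 197 in resident and 118, 152 and 150 in monocyte-derived libraries. It was 1.47-fold higher in converted (log2 0.56 ± 0.10, adjusted p = 0.00102) and 1.42-fold higher in resident libraries (log2 0.51 ± 0.10, adjusted p = 0.00174). Hadha had 171, 158 and 154 CPM in converted, 164, 175 and 163 in resident and 148, 159 and 168 in monocyte-derived libraries, with log2 fold changes of 0.02 ± 0.08 (adjusted p = 0.835; 95% interval -0.15 to 0.19) and 0.08 ± 0.08 (adjusted p = 0.423; -0.09 to 0.25). Reads of Hadhb over reads of Hadha gave ratios of 1.22, 1.28 and 1.34 in converted, 1.16, 1.2 and 1.21 in resident and 0.798, 0.953 and 0.891 in monocyte-derived libraries. The ratio was higher in every tissue library than in every monocyte-derived one. It takes no account of gene length, so a value of 1 marks no balance of the subunits. Exons of Hadha, but not of Hadhb, overlap those of a counted gene, Garem2 on the opposite strand. Some reads of Hadha may therefore have been left out as ambiguous. Per kilobase of merged exons Hadhb averaged above Hadha in monocyte-derived libraries too (21.2 against 18.2 CPM per kb). The mean log2 ratio differed by 0.10 between converted and resident, by 0.54 between converted and monocyte-derived and by 0.44 between resident and monocyte-derived libraries. Each of the 3 differences had a two-sided exact permutation p of 0.1, the smallest that 3 against 3 libraries allow, so the test does not set them apart.

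**Figure D2:**
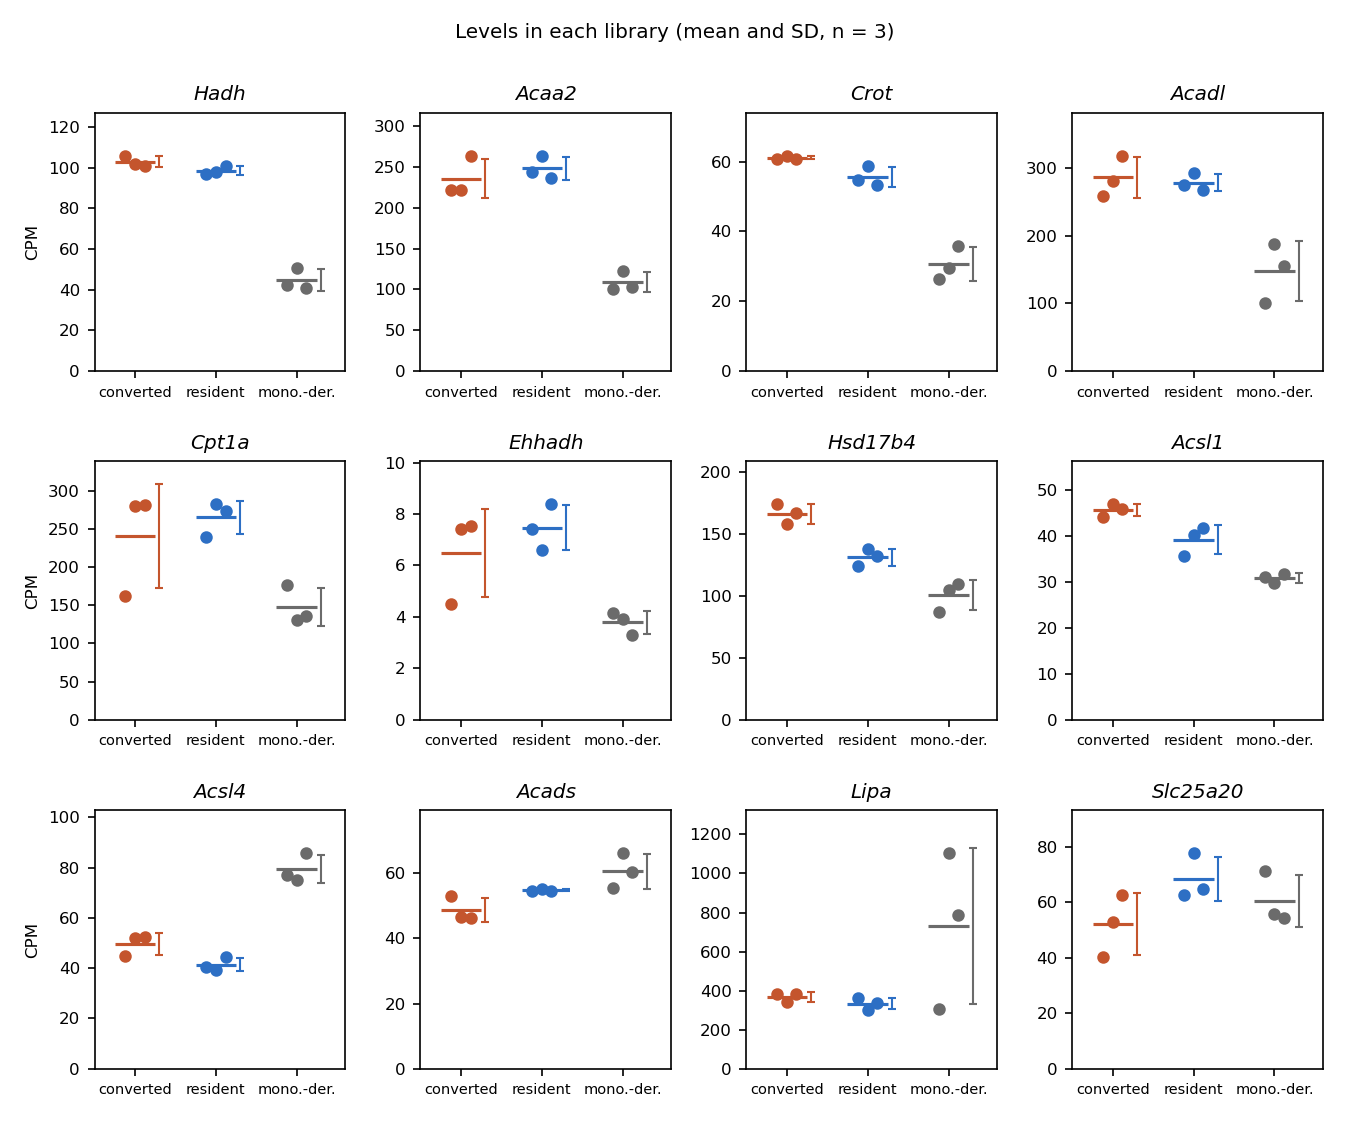
CPM of 12 members in each library (points), with the group mean (bar) and SD (whisker, n = 3); axes start at 0. Hadh, Acaa2, Crot and Acadl separate both tissue groups from the monocyte-derived one, converted library 1 is low for Cpt1a, Ehhadh and Slc25a20, and monocyte-derived library 1 lies apart for Lipa.

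Chains with double bonds need isomerases and reductases before they can go on. Eci1 had 52, 47 and 47.7 CPM in converted, 44.6, 50.5 and 41.8 in resident and 35.5, 35.9 and 30.8 in monocyte-derived libraries, and was 1.43-fold (adjusted p = 0.00195) and 1.34-fold (adjusted p = 0.00659) higher in the tissue groups. Eci2, an isomerase of mitochondria and peroxisomes, had 42.8, 44.3 and 54.5 CPM in converted, 50.4, 54.1 and 51.1 in resident and 33.2, 32 and 28.7 in monocyte-derived libraries, 1.51-fold (adjusted p = 0.00135) and 1.66-fold (adjusted p = 0.000379) higher. For both isomerases every converted and resident library lay above every monocyte-derived one. The dienoyl-CoA reductases Decr1 (28.7 to 40.3 CPM over the 9 libraries) and Decr2 (22.6 to 33.5 CPM), of mitochondria and peroxisomes, passed in no comparison, though Decr1 was called higher in converted than in monocyte-derived libraries without monocyte-derived library 2 (adjusted p = 0.0442).

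Electrons taken by the dehydrogenases pass through the flavoprotein of Etfa and Etfb to Etfdh, which hands them to ubiquinone. Etfdh had 81.1, 89.1 and 102 CPM in converted, 81.9, 98 and 88.2 in resident and 56.9, 77.3 and 61.4 in monocyte-derived libraries. It was 1.39-fold higher in converted (log2 0.47 ± 0.13, adjusted p = 0.0126) and 1.37-fold higher in resident libraries (log2 0.45 ± 0.13, adjusted p = 0.0155). These calls were lost without converted library 3 (0.0511) and without resident library 2 (0.0629). Etfa had 201, 207 and 223 CPM in converted, 207, 222 and 210 in resident and 200, 256 and 226 in monocyte-derived libraries, and Etfb had 9.4 to 10.1, 11.5 to 14.4 and 8.74 to 12 CPM. Exons of Etfb overlap those of the counted genes Gm45233 and Mir7051, so some of its reads may have been left out as ambiguous. Neither carrier subunit passed in any comparison with all libraries; without monocyte-derived library 2 Etfb was called higher in resident than in monocyte-derived ones (adjusted p = 0.0388).

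Of 5 members placed with the peroxisome, 2 were higher in both tissue groups. In the converted and resident comparisons 25.8% and 25.7% of all tested genes were higher. A group of 5 genes is too small to read against these shares. Hsd17b4, the multifunctional enzyme of the peroxisomal cycle for very long and branched chains, had 174, 158 and 167 CPM in converted, 124, 138 and 132 in resident and 87.1, 105 and 110 in monocyte-derived libraries. None of the groups overlapped, and the level was 1.65-fold higher in converted (log2 0.72 ± 0.10, adjusted p = 0.000183) and 1.3-fold higher in resident libraries (log2 0.38 ± 0.10, adjusted p = 0.00862) than in monocyte-derived ones. Between converted and resident libraries the fold was 1.27 (log2 0.34 ± 0.10, 95% interval 0.13 to 0.56), with an adjusted p of 0.0697 by edgeR. Ehhadh, the bifunctional enzyme and a textbook target of PPAR-alpha in liver, was low, with 4.49, 7.41 and 7.54 CPM in converted, 7.43, 6.61 and 8.37 in resident and 4.16, 3.93 and 3.3 in monocyte-derived libraries. It was 1.7-fold (adjusted p = 0.0188) and 1.96-fold (adjusted p = 0.00545) higher. The converted call was lost without converted library 2 (0.0669) or 3 (0.0694) or monocyte-derived library 3 (0.0527).

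The thiolase Acaa1a had 51.4 to 59.1, 57.8 to 64.8 and 54.6 to 67.6 CPM in converted, resident and monocyte-derived libraries, the branched-chain oxidase Acox3 46 to 53.8, 56 to 61.4 and 40.3 to 53.3, and the transporter Abcd3 47.5 to 61.4, 43 to 52.7 and 42.7 to 52.8. These 3 genes passed in no comparison with all libraries and groups in the fit. Acox3 was called higher in resident than in monocyte-derived libraries without monocyte-derived library 2 (adjusted p = 0.0404), and lower in converted than in resident libraries in the fit of those groups alone (adjusted p = 0.0414). Acaa1b, the close paralog of Acaa1a, was listed at no more than 0.275 CPM, and no source used here says how reads shared by both were counted.

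Among the regulators, Ppara, the nuclear receptor that drives oxidation genes in liver, was almost unread: 2 reads over the converted, 6 over the resident and 2 over the monocyte-derived libraries, too few to test. Ppard, the widely expressed relative, had 2.14, 1.37 and 2.19 CPM in converted, 2.53, 2.1 and 2.5 in resident and 2.24, 2.37 and 1.23 in monocyte-derived libraries and passed in no comparison. Lipa, the lysosomal acid lipase that frees fatty acids from engulfed lipid, had 382, 340 and 381 CPM in converted, 360, 302 and 336 in resident and 306, 1103 and 785 in monocyte-derived libraries. Monocyte-derived library 1 lay with the tissue libraries and the other 2 well above them, so the groups overlapped. The test gave a 1.99-fold lower level in converted (log2 -0.99 ± 0.35, adjusted p = 0.0403) and a 2.2-fold lower level in resident libraries (log2 -1.14 ± 0.35, adjusted p = 0.0233). The calls were lost in 13 and 10 of the 16 alternative settings, among them limma-voom (0.0944 and 0.0537) and the fits without monocyte-derived library 2 (0.173 and 0.102) or 3 (0.0895 and 0.0554).

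**Figure D3:**
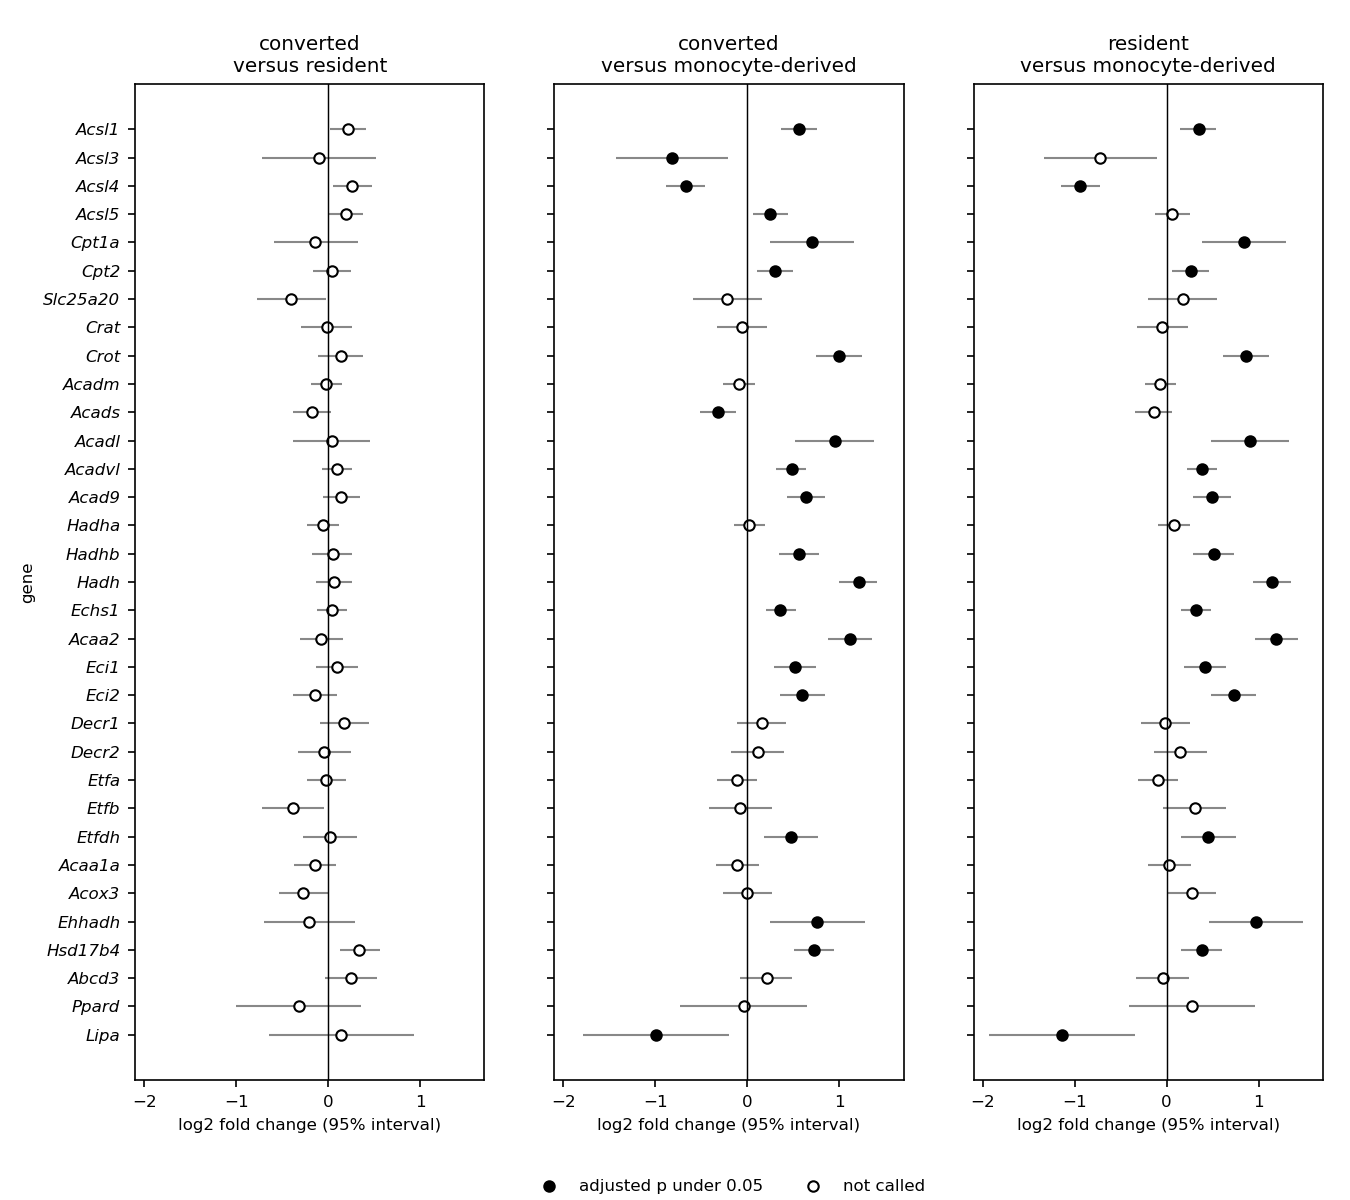
Log2 fold change with its 95% interval for each of the 33 tested members (rows) in the 3 comparisons (panels); filled points passed at an adjusted p under 0.05. The left panel, converted versus resident, has no filled point, and the other 2 panels have 21 and 18.

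Genes can be ranked against each other only once their length is taken into account. Per kilobase of merged exons the highest mean levels were those of Acaa2 (155 CPM per kb), Acadl (143) and Etfa (115) in converted, Acaa2 (164), Acadl (139) and Etfa (116) in resident, and Etfa (124), Lipa (108) and Acadl (74) in monocyte-derived libraries. In converted libraries the ranges of Acaa2 and Acadl overlap. In monocyte-derived ones those of Lipa (45.2 to 163) and Etfa (109 to 139) overlap, as do those of Acadl (50.4 to 93.9) and Acaa2 (66.1 to 80.9), so these orders are not firm. Also, merged exons of long annotated isoforms, as for Acsl1 and Acox3, lower this measure. Members varied more among monocyte-derived libraries, with a median coefficient of variation of 12.1%, than among converted (6.41%) or resident (5.38%) ones; over all tested genes these medians were 16.8%, 10.5% and 7.76%. Summed over all 34 genes the level was 3426 ± 117 CPM in converted, 3350 ± 79.6 in resident and 3099 ± 583 in monocyte-derived libraries (SD, n = 3 each), and the groups overlapped. Lipa, which is not an enzyme of oxidation, made up a large and uneven part of the monocyte-derived sums, at 306, 1103 and 785 CPM. The 5 genes for hydration, dehydrogenation and thiolysis summed to 832.2 ± 20.1 CPM in converted, 836.6 ± 28.3 in resident and 550.1 ± 43.6 in monocyte-derived libraries, and the monocyte-derived libraries stood below the other groups without overlap. The same held for the sums of the carnitine group (at least 447.8 CPM in converted and resident libraries, against 412.9 to 420.5 in monocyte-derived ones), the acyl-CoA dehydrogenases (at least 488.9 CPM in converted and resident libraries, against 304 to 406.4 in monocyte-derived ones), the double-bond enzymes and the peroxisomal genes, but not for activation, electron transfer or the regulators with Lipa.

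**Figure D4:**
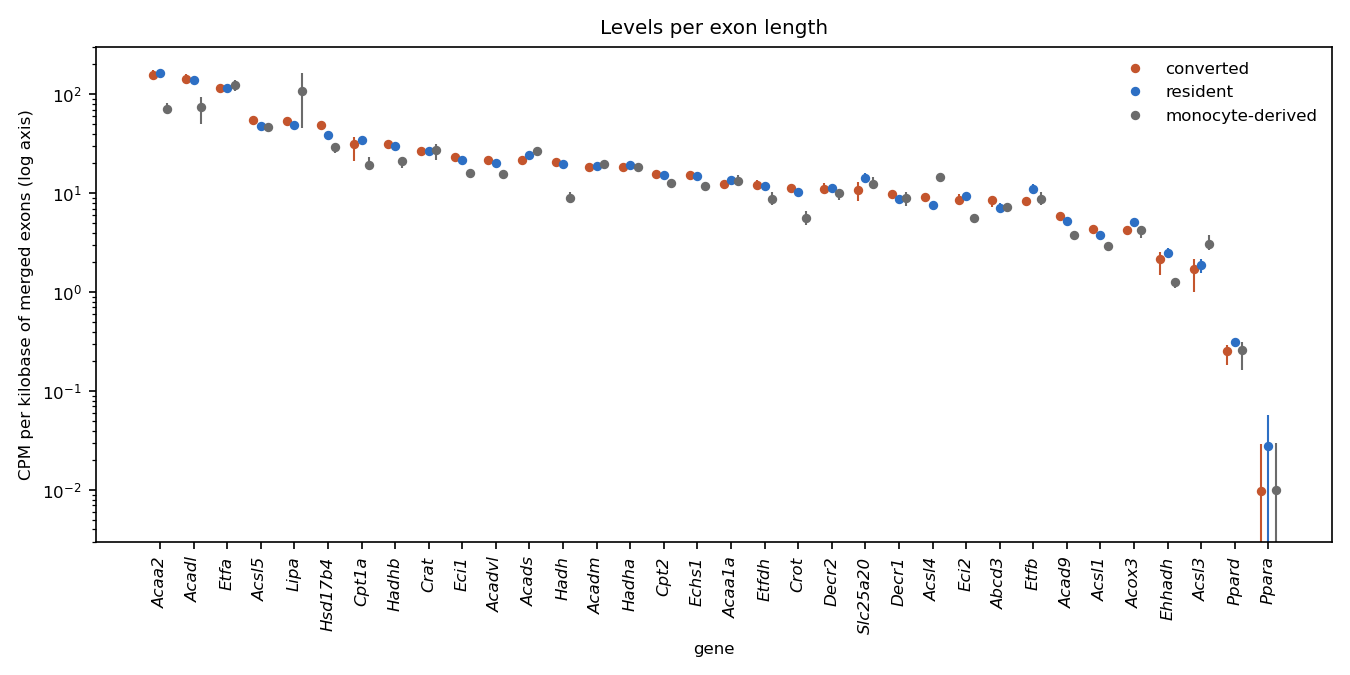
Mean level per kilobase of merged exons on a log axis for all 34 genes, ordered by converted libraries, with the range over 3 libraries as a line (a range that reaches 0 runs to the axis floor). Acaa2, Acadl and Etfa stand above 100 CPM per kb in converted and resident libraries, and Ppard and Ppara stand at the low end.

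Further oxidation enzymes were also more often higher than lower in the tissue groups. Of 28 further oxidation enzymes 23 were tested, and 13 (56.5%) were higher and none lower in converted than in monocyte-derived libraries, with 14 (60.9%) higher and none lower in resident ones. Over all tested genes the shares were 25.8% higher and 24.9% lower in the converted comparison and 25.7% and 24.9% in the resident one. Pecr, a peroxisomal trans-2-enoyl-CoA reductase, was 2.38-fold higher in converted (18.5 ± 1.54 against 7.75 ± 1.3 CPM, adjusted p = 7.85e-05), Hacl1, the lyase of branched-chain alpha-oxidation, 2.37-fold (11.7 ± 0.479 against 4.94 ± 1.36 CPM, adjusted p = 0.000477) and Acad11, an acyl-CoA dehydrogenase, 2.13-fold (11.6 ± 0.914 against 5.42 ± 1.23 CPM, adjusted p = 0.000601; SD, n = 3). Etfbkmt, a methyltransferase of the flavoprotein, had the largest fold in resident libraries among those with at least 10 CPM, at 2.38 (18.8 ± 1.67 against 7.93 ± 2.17 CPM, adjusted p = 0.000574). Between converted and resident libraries 1 of 23 passed, Acsf2, a mitochondrial acyl-CoA synthetase family member that fell by 1.17 on the log2 scale (adjusted p = 0.00857); it was below the level set for naming and was named after its value was seen.

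Of 9 genes around malonyl-CoA, the brake on Cpt1a, 2 were higher and 1 lower in converted and 4 higher and 2 lower in resident than in monocyte-derived libraries, beside 50.7% of all tested genes called in either comparison. Acaca, the carboxylase that makes malonyl-CoA, had 68.5, 80 and 67 CPM in converted, 60.3, 67.1 and 61.9 in resident and 13.7, 15.7 and 25.9 in monocyte-derived libraries (3.91-fold and 3.43-fold higher, adjusted p = 4.01e-05 and 7.57e-05). The catalytic subunits of AMPK, the kinase that inactivates this carboxylase, went opposite ways. Prkaa2 had 30.2 ± 5.27, 28.3 ± 2.24 and 0.381 ± 0.527 CPM in converted, resident and monocyte-derived libraries, while Prkaa1 had 56.8 ± 3.98, 47.8 ± 1.28 and 81.1 ± 12.2 CPM (SD, n = 3; adjusted p = 9.44e-06 and 1.05e-05 for Prkaa2, 0.0035 and 0.000331 for Prkaa1). In resident versus monocyte-derived libraries Mlycd, which breaks malonyl-CoA down, was also called higher (37.5 against 31.7 CPM, adjusted p = 0.0495) and Prkag2, a regulatory subunit of AMPK, lower (16 against 20.7 CPM, adjusted p = 0.0299).

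Among 18 tested PPAR partners and targets outside the enzymes, 3 were higher and 5 lower in converted and 4 higher and 5 lower in resident than in monocyte-derived libraries, a share no larger than the 50.7% of all tested genes called. Pparg, the receptor of lipid uptake and storage, had 3.19, 1.58 and 2.42 CPM in converted, 1.65, 0.734 and 1.22 in resident and 50.2, 99.9 and 102 in monocyte-derived libraries (34.8-fold and 69.6-fold lower, adjusted p = 4e-06 and 2.43e-06). Rxra, the partner of all PPARs, was at 130 ± 12.7, 111 ± 2.72 and 67.8 ± 3.49 CPM (SD, n = 3; 1.92-fold and 1.63-fold higher, adjusted p = 1.52e-05 and 9.77e-05). Ppargc1b, a coactivator of mitochondrial genes, had 45.5, 43.1 and 47 CPM in converted, 70.2, 63.6 and 57.4 in resident and 26.8, 31.9 and 36.7 in monocyte-derived libraries, and was the single gene of this list called between converted and resident libraries (1.41-fold lower in converted, adjusted p = 0.0432). Tfeb, a regulator of lysosome genes, averaged 10.6, 12.8 and 35.5 CPM in converted, resident and monocyte-derived libraries (adjusted p = 0.000131 and 0.000361), and Nrip1, a corepressor of nuclear receptors, 24, 22.7 and 38.1 CPM (adjusted p = 0.0062 and 0.00328). Lpin1, a phosphatidate phosphatase and coactivator, was lower in converted (9.6 against 16.9 CPM, adjusted p = 0.0229), and Esrra, a nuclear receptor of mitochondrial genes, higher in resident libraries (58.8 against 39.3 CPM, adjusted p = 0.00529).

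Of 8 tested acyl-CoA thioesterases, which undo activation, 1 was higher and 2 lower in each comparison with monocyte-derived libraries, a smaller share than the 50.7% of all tested genes called. Acot7 was lower in both tissue groups, with 24.5 ± 0.899 CPM in the converted, 23 ± 2.89 CPM in the resident and 73.4 ± 7.64 CPM in the monocyte-derived group (SD, n = 3; adjusted p = 3.57e-06 and 2.75e-06). Acot8, a peroxisomal thioesterase, was the one called higher (19.9, 19.7 and 14.1 CPM, adjusted p = 0.0106 and 0.0119), and Acot9, a mitochondrial one, was lower in resident than in monocyte-derived libraries (66.3 against 86.8 CPM, adjusted p = 0.00308).

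**Figure D5:**
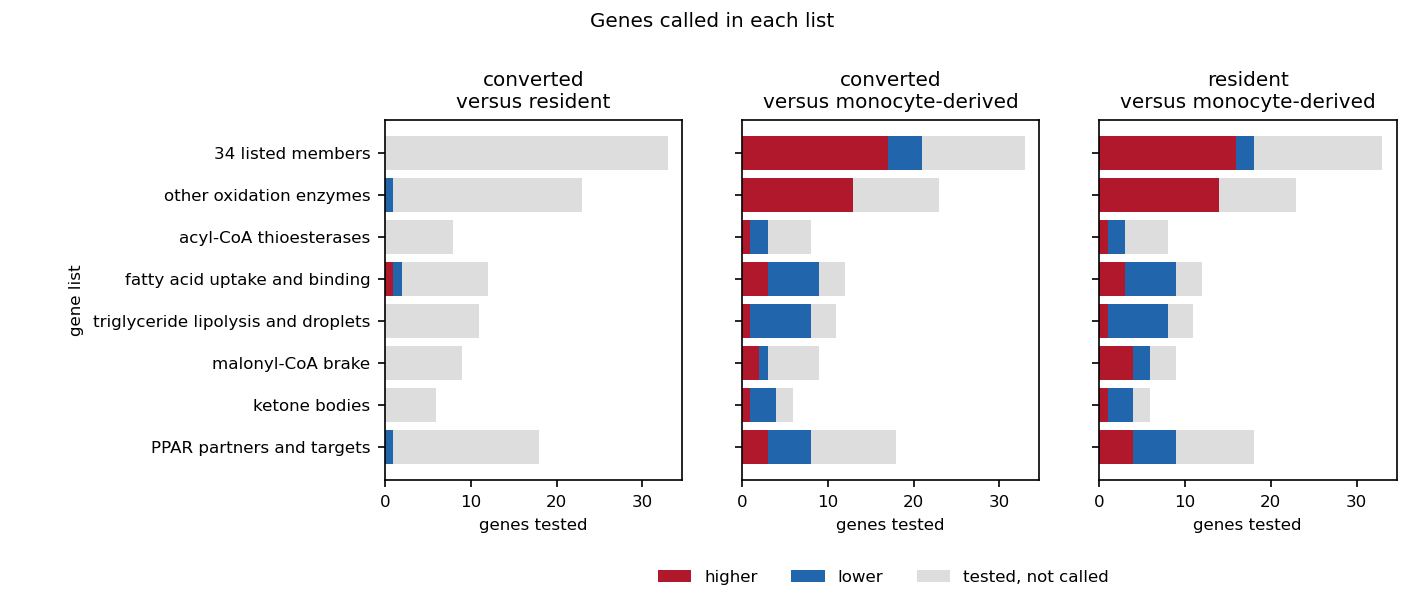
Tested genes of the 34 listed members and of 7 further lists (rows) that were higher, lower or not called in each comparison (panels). Against monocyte-derived libraries oxidation enzymes are more often higher than lower. In the same panels genes of uptake and binding, and of lipolysis and droplets, are more often lower than higher.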

How the data were processed

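RNA-seq was analysed in 9 libraries of sorted peritoneal macrophages. The authors deposited 1 table of raw counts for each library, made with TopHat2 2.1.0 and HTSeq on GRCm38 according to the submitters' processing notes. No source used here names the annotation, the strand setting or the handling of multiply aligned reads, and exons of 13 members overlap those of another counted gene, so such reads may be shared. Lines that name no gene (4.02% to 5.66% in no gene, 4.47% to 4.68% ambiguous) were left out. Of 47729 identifiers 47224 matched GENCODE M21, which gave symbols, coordinates and merged exon lengths.

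Counts were filtered with filterByExpr (at least 10 reads in enough libraries, at least 15 over all), given TMM factors and tested by edgeR 4.0.16 in R 4.3.3 (robust quasi-likelihood, 1 fit of 3 groups, 6 residual degrees of freedom), with Benjamini-Hochberg adjustment over 13223 genes and a threshold of 0.05. CPM use TMM-scaled library sizes. Alternatives were DESeq2 1.42.0, limma-voom (limma 3.58.1), RLE scaling, no filter, fits of 2 groups, a replicate block, a B-cell index and each library left out. The test was tried on simulated counts. Members, lists and tests were chosen with earlier results of these data known. All members were described; of other lists, up to 3 called genes per comparison and direction with at least 10 CPM in the higher group were named (1 result is not reported here), together with check genes, and Cpt1b, Acaa1b and the cell markers were also named, outside that rule and with their values known. No pair of libraries within a group agreed within sampling noise (the lowest chi-square per degree of freedom was 5.99), and all 9 were kept as separate.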

Additional observations from a re-analysis of the deposited data

How the results depend on the processing

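In converted versus resident libraries the count of called members was 0, with 1 by DESeq2, 2 in the fit of these groups alone (Hsd17b4 higher, Acox3 lower), and 0 to 1 when a library was left out, the 1 being Hsd17b4 without monocyte-derived library 1. Of all tested genes 10.3% were called by DESeq2, 16.2% in the fit of these groups alone and 12% without monocyte-derived library 1. Against monocyte-derived libraries 21 members were called in converted ones (14 to 21 without a library) and 18 in resident ones (15 to 19). Without a library 43.2% to 50.4% of all tested genes were called in the converted and 41.7% to 50.6% in the resident comparison. With the B-cell index in the fit 12 and 0 members were called, beside 26.3% and 0.832% of all tested genes. In that fit the resident log2 changes of Acsl1, Cpt1a and Lipa turned to -0.12, -0.37 and 0.05. The cause was not tested. Hadha in converted versus monocyte-derived libraries ranged over -0.02 to 0.07 without a library, being -0.02 without monocyte-derived library 1 or converted library 1. Of the called members, 12 of 21 in the converted comparison kept their call in every setting, and 15 of 18 in the resident one did so in every setting but the B-cell index. Deviations of same-numbered libraries from their group means correlated at -0.0939 to 0.0651, and those of differently numbered ones at -0.089 to 0.106. With so few libraries this check cannot tell whether a number marks a shared mouse or day. With the replicate block 20 members were called in converted and 16 in resident versus monocyte-derived libraries and 0 in converted versus resident ones. The shares of all tested genes called were 47.5%, 47.9% and 4.01% in that order. Under the block Lipa was not called in either comparison with monocyte-derived libraries (0.0802 and 0.0512), nor Cpt2 in the resident one (0.0561). Depth limits what can be said of Ppara, Ppard and Ehhadh.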

Other observations

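Genes of fatty acid uptake and binding, and those of lipolysis and droplets, were more often lower than higher in the tissue groups. Of 12 tested genes of uptake and binding, 6 were lower and 3 higher in converted than in monocyte-derived libraries, with the same counts for resident ones, beside 24.9% lower and 25.8% or 25.7% higher among all tested genes. Slc27a1, a fatty acid transport protein, had 4.54, 6.15 and 13.7 CPM in converted, 10.4, 13.8 and 9.01 in resident and 44.8, 103 and 75.4 in monocyte-derived libraries (edgeR adjusted p = 0.00022 and 0.000482). Cd36, the scavenger receptor that takes up long-chain fatty acids, had 230, 114 and 211 CPM in converted, 108, 130 and 117 in resident and 336, 1470 and 897 in monocyte-derived libraries (adjusted p = 0.00254 and 0.000714). Fabp7, a fatty acid binding protein best known from brain, ran the other way at 91.6, 71 and 71.4, 53.9, 57.6 and 62.4, and 1.39, 2.66 and 1.88 CPM in the same order (39.5-fold and 29.4-fold higher, adjusted p = 6.83e-08 and 1.15e-07). Lpl, the lipase that frees fatty acids from lipoproteins, had 122, 29.4 and 99.6 CPM in converted, 11.6, 7.34 and 14 in resident and 811, 1984 and 1638 in monocyte-derived libraries (adjusted p = 0.000195 and 1.78e-05), and was also higher in converted than in resident libraries (adjusted p = 0.0144). Slc27a3, an acyl-CoA synthetase of the transport protein family, averaged 0.456, 2.59 and 20.9 CPM (adjusted p = 3.55e-06 and 5.13e-05), and was 5.6-fold lower in converted than in resident libraries (adjusted p = 0.0101). Dbi, the acyl-CoA binding protein, averaged 229, 259 and 149 CPM (adjusted p = 0.0303 and 0.00923) and Got2, an aminotransferase also described as a membrane fatty acid binding protein, 135, 130 and 98.4 CPM (adjusted p = 0.00152 and 0.00315). Monocyte-derived library 1 was the lowest of its group for Slc27a1, Cd36 and Lpl, as it was for Lipa.

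Of 11 tested genes of lipolysis and droplets, 7 were lower and 1 higher in each tissue group than in monocyte-derived libraries, beside the same shares of all genes. Mgll, which cleaves monoacylglycerol, averaged 0.18, 0.38 and 11.5 CPM in converted, resident and monocyte-derived libraries (adjusted p = 6.56e-05 and 0.000118). Hilpda, a droplet protein that inhibits the lipase Pnpla2, had 19.8, 25.1 and 33.5 CPM in converted, 27.7, 37.4 and 31.2 in resident and 95.3, 282 and 215 in monocyte-derived libraries (adjusted p = 0.000148 and 0.000269). G0s2, another inhibitor of that lipase, had 3.3 ± 1.19, 3.4 ± 0.217 and 14.8 ± 0.67 CPM (SD, n = 3; adjusted p = 4.57e-05 and 5.16e-05). Pnpla2 itself, named after its values were seen, was at 70.6 to 94 CPM over the 9 libraries and passed in no comparison. Among 6 tested genes of ketone bodies 3 were lower and 1 higher in each tissue group, too few to read against those shares. Acat1, the thiolase of acetoacetyl-CoA, had 292 ± 21.1 CPM in converted, 266 ± 17.5 in resident and 166 ± 9.45 in monocyte-derived libraries (SD, n = 3; adjusted p = 3.83e-05 and 0.000123). Oxct1, which activates ketone bodies for burning, averaged 191, 187 and 374 CPM (adjusted p = 0.00628 and 0.00536), and Slc16a1, a monocarboxylate carrier, was lower in resident than in monocyte-derived libraries (140 against 210 CPM, adjusted p = 0.0187).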
